A study of Homo sapiens with 2 samples.

Results

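The genes described here are 32 androgen-regulated genes of prostate epithelium other than the kallikreins, and their mRNA levels were compared between C4-2 cells transfected with miR-99a and C4-2 cells transfected with si-GL2. C4-2 is an established human prostate cancer cell line descended from LNCaP. The 32 genes were taken from a list of androgen-responsive prostate genes, and each was followed through every probe set that the annotation of the array platform gives to that gene and no other. Of the 32 genes, 29 had such a probe set, among 19775 genes with one on the array. These 29 genes were read by 91 probe sets. ACSL3 and SORD were not analysed here, and HERC3 was read only by probe sets that a second gene shares.

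The miR-99a group was C4-2 cells transfected with the microRNA for 48 h by a lipid reagent, and the si-GL2 group was C4-2 cells transfected in the same way for 48 h with a control small interfering RNA named after a luciferase reporter. Both groups were grown in medium with fetal bovine serum, and the labels name no added androgen. Each group was 1 culture of a single cell line on 1 Affymetrix array, so every value below is a single measurement with no replicate behind it and no test was made. The labels do not say in what form miR-99a was delivered or whether its level was measured.

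Testosterone and dihydrotestosterone control transcription through androgen response elements in DNA, palindromes of the half-site AGAACA. These elements lie largely in distant enhancers, where the forkhead factor FOXA1 opens chromatin. In luminal prostate cells this programme sustains secretion, lipid and sugar metabolism and growth, and the level of its target mRNAs is widely used as a readout of androgen action. A microRNA lowers mRNAs mainly through pairing of its seed, bases 2 to 8, with sites in its targets.

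The transfected microRNA is shown because it is the agent whose effect the design asks about. Cells without a transfected RNA were not analysed here, so a difference holds both what miR-99a did and what si-GL2 did. The mature sequence is given from RefSeq on GRCh38.p14 at chr21:16539101-16539122, plus strand, with the seed in capitals.
hsa-miR-99a-5p: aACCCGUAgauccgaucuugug

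The 29 genes had nearly the same mRNA signals after miR-99a as after si-GL2. Differences are given as log2(signal + 16), miR-99a minus si-GL2, and unless said otherwise a gene is represented by its brightest probe set. All 29 genes lay at or above the median signal of all probe sets, about 47.2, the limit above which a gene was counted as expressed and which 12218 genes reached. Of the 29 genes, 0 were at least 1.5-fold lower and 1, STEAP4, was at least 1.5-fold higher. STEAP4 was below the expression limit on the si-GL2 array and above it on the miR-99a array, so it was counted only through the group in which it was higher. The same limits were passed downward by 2.9% and upward by 1.21% of all expressed genes, so both counts were near the background. The median difference over the 29 genes was -0.072 and the mean was -0.078 ± 0.27 (SD over genes), against a median of -0.031 and an SD of 0.26 over all expressed genes. In all, 17 of the 29 genes (58.6%) lay below 0, as did 56.3% of all expressed genes. Without the probe sets marked _x_ or _s_, which can read related transcripts, the median was -0.026 over 25 genes, against -0.040 over all expressed genes. A lower signal from a whole culture does not tell fewer expressing cells from less mRNA per cell.

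**Figure D1:**
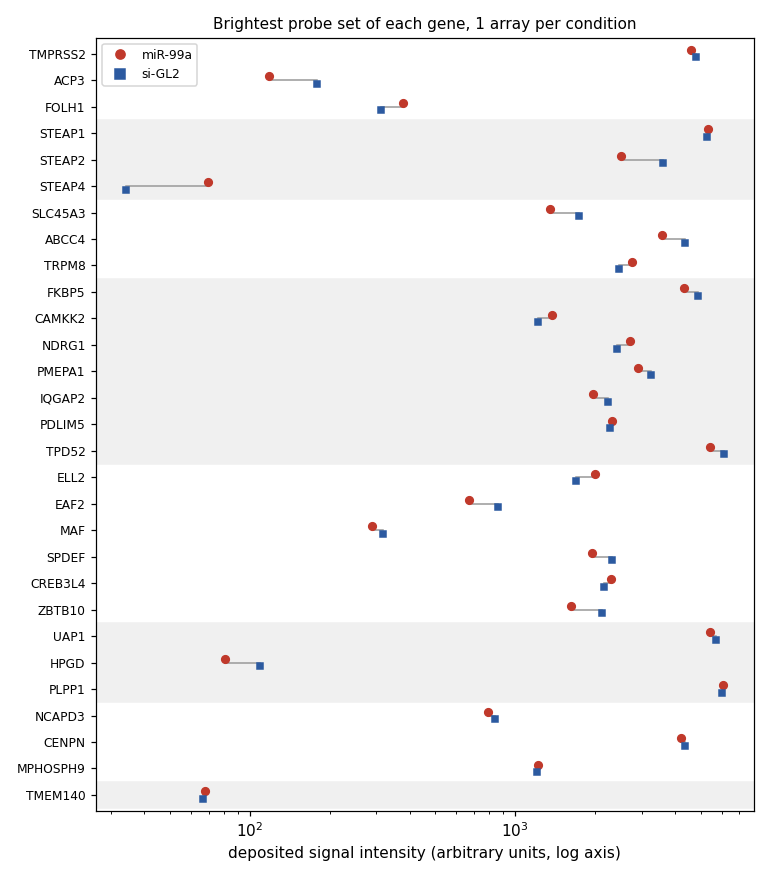
Deposited signal of the brightest probe set of each of the 29 genes on the miR-99a array (circles) and the si-GL2 array (squares), on a log axis in arbitrary units, with genes grouped by role (alternate shading). The 2 marks of a gene nearly coincide for most genes and are farthest apart for STEAP4, at 69.8 after miR-99a against 34.2 after si-GL2.

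The differences were mostly small in either direction. In size, 10 of the 29 genes lay within 0.1 of 0, 12 between 0.1 and 0.3, and 7 beyond 0.3. Of those 7, 6 were lower after miR-99a: ACP3, STEAP2, ZBTB10, HPGD, SLC45A3 and EAF2. That is 20.7% of the 29 genes at or below -0.3, where 13.7% of all expressed genes lay. As means over all probe sets of a gene, 4 genes were at or below -0.3, namely STEAP2 (-0.52), ABCC4 (-0.37), TPD52 (-0.32) and ZBTB10 (-0.32), while SLC45A3 was at -0.23, HPGD at -0.21, EAF2 at -0.066 and ACP3 at 0.065. STEAP4 alone was at or above 0.3 by its brightest probe set, where 7.29% of all expressed genes lay.

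**Figure D2:**
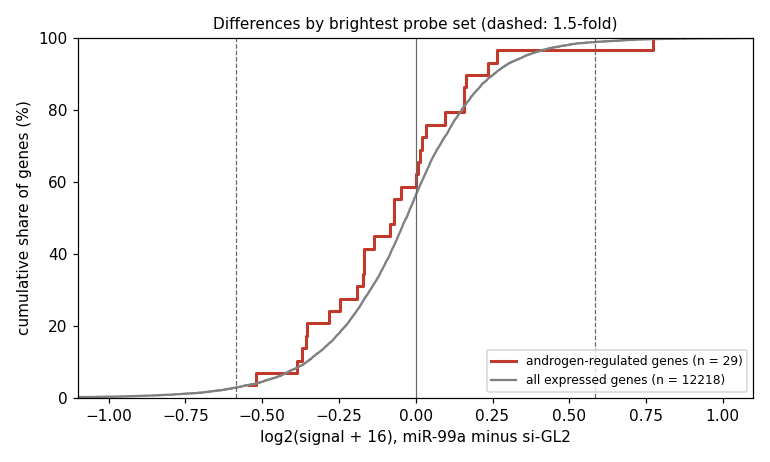
Cumulative share of genes (vertical axis, %) against the log2 difference, miR-99a minus si-GL2 (horizontal axis), for the 29 androgen-regulated genes and for all 12218 expressed genes. The curves run close together, and 1 of the 29 genes lies beyond a dashed line of 1.5-fold.

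Among the enzymes at the cell surface or in the secretion, TMPRSS2, a transmembrane serine protease known for its fusion to ERG in prostate tumours, was 4585 after miR-99a and 4822 after si-GL2 (-0.072). Its other 3 probe sets were at 3475 against 3194, at 2094 against 2079 and at 193 against 213. Of the 4 probe sets 2 were thus above 0 and 2 below, and all lay between -0.13 and 0.12. ACP3, prostatic acid phosphatase, a secreted enzyme long used as a serum marker, was 118 after miR-99a and 179.6 after si-GL2 (-0.54). This was the lowest of the 29 genes, but the other 2 probe sets of ACP3, both below the expression limit, ran the other way, at 38.5 against 34.5 (0.11) and at 28.0 against 12.5 (0.63). The mean over the 3 probe sets of ACP3 was 0.065, and with a pseudocount of 1 its brightest was at -0.60, past 1.5-fold.

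FOLH1 encodes prostate-specific membrane antigen, a surface carboxypeptidase that is known, unlike most genes of the list, to be held down by androgen. Its own probe set was 378 after miR-99a and 312 after si-GL2 (0.27). The 3 probe sets that the annotation gives to both FOLH1 and its close copy FOLH1B were at 5508 against 6468 (-0.23), 5562 against 6475 (-0.22) and 3621 against 4025 (-0.15). A probe set assigned to FOLH1B alone was at 3350 against 4072 (-0.28). The probe set of FOLH1 and the 4 that FOLH1B carries or shares therefore lay on opposite sides of 0, and which transcripts the shared ones measured was not tested.

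The STEAP genes encode membrane proteins of a metalloreductase family, and the 3 members differed among themselves. STEAP1 was 5308 after miR-99a and 5299 after si-GL2 (0.0023). STEAP2 was 2515 after miR-99a and 3612 after si-GL2 (-0.52), the second lowest value among the 29 genes. STEAP4 was 69.8 after miR-99a and 34.2 after si-GL2 (0.77). STEAP1 and STEAP2 had 1 probe set each. The second probe set of STEAP4 was at 7.32 against 13.02 (-0.32), below the limit and of the opposite sign. As the mean of both its probe sets STEAP4 was at 0.23, and with a pseudocount of 64 in place of 16 its brightest probe set was at 0.45, each short of 1.5-fold.

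The size of a difference was read against genes of similar signal. STEAP2 belonged to the brightest quartile of expressed genes, 3055 genes whose central 95% lay between -0.41 and 0.37, and was below that interval. It was alone in this among the 21 of the 29 genes in that quartile. The interval leaves out some genes by construction, so the place of STEAP2 does not show an unusual change. STEAP4 belonged to the dimmest quartile, whose central 95% lay between -0.62 and 0.53, and was above it. However, STEAP4 entered that quartile only through the group in which it was higher, so its place there does not show an unusual change. Its second probe set, below the limit, was at -0.32. ACP3 was inside the interval of its quartile, -0.68 to 0.44. Of the 29 genes, 21 were in the brightest quartile, with a median of -0.071 and 12 below 0. Over all genes of that quartile the median was -0.0085 and 52.9% lay below 0.

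**Figure D3:**
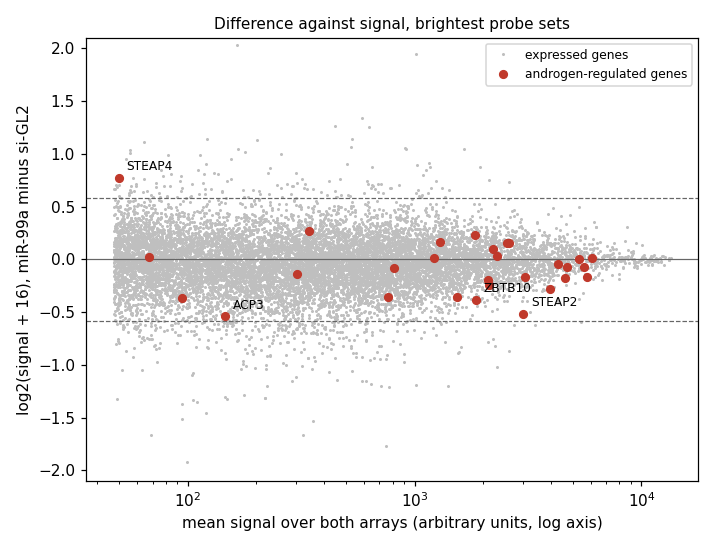
Log2 difference, miR-99a minus si-GL2 (vertical axis), against mean signal over both arrays, averaged on the log2(signal + 16) scale (horizontal log axis, arbitrary units), for the 29 androgen-regulated genes (red) and all expressed genes (grey). Most of the 29 genes were read by bright probe sets and lie near 0, and the 1 above the upper dashed line of 1.5-fold, STEAP4, is among the dimmest.

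Of the transporters and the channel, the 2 transporter genes were lower and the channel gene was slightly higher. ABCC4, an efflux pump for cyclic nucleotides and drugs, was 3567 after miR-99a and 4347 after si-GL2 (-0.28). Its other expressed probe sets were at 979.5 against 1213 (-0.30) and at 517 against 674 (-0.37), and the dimmest was at 31.9 against 52.7 (-0.52). All 4 probe sets of ABCC4 were below 0. SLC45A3, which encodes the prostate membrane protein prostein, was 1357 after miR-99a and 1741 after si-GL2 (-0.36), and its second probe set was at 113 against 123 (-0.11). TRPM8, a cold-activated cation channel of prostate and sensory nerve, was 2756 after miR-99a and 2470.1 after si-GL2 (0.16), and a probe set of it below the limit was at 0.72.

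In the group of signalling and stress genes, 4 of 7 lay below 0, with a median of -0.17, and the range was -0.19 to 0.16. FKBP5, a co-chaperone of HSP90 and one of the most used androgen response genes, was 4328 after miR-99a and 4881 after si-GL2 (-0.17). Its other probe sets were at 1699 against 2102 (-0.30) and at 935 against 1008 (-0.11), so all 3 were lower after miR-99a. PMEPA1, a membrane adaptor that recruits NEDD4 ubiquitin ligases and dampens TGF-beta signalling, was 2891 after miR-99a and 3251 after si-GL2 (-0.17), and its other 2 probe sets were at -0.044 and -0.19. IQGAP2, a scaffold protein of the IQGAP family, was 1961 after miR-99a and 2242 after si-GL2 (-0.19), with a second probe set at -0.16.

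TPD52, a vesicle trafficking protein often overexpressed in prostate cancer, was 5429 after miR-99a and 6103 after si-GL2 (-0.17). The next 2 probe sets were at 4356 against 4734 (-0.12) and at 3530.2 against 3993 (-0.18). The 2 dim ones were at 373 against 564 (-0.58) and at 322 against 481 (-0.56). All 5 probe sets of TPD52 were therefore below 0, with the dim pair farther from 0 than the bright trio. CAMKK2, the kinase that activates AMPK and a known androgen-induced gene, went the other way, at 1372 after miR-99a and 1224 after si-GL2 (0.16). Its remaining probe sets were at 557 against 444 (0.32), 291 against 222 (0.37) and, below the limit, 53.8 against 38.9 (0.35), so all 4 were higher. NDRG1, a stress-induced protein, was 2702 after miR-99a and 2419.6 after si-GL2 (0.16) by its only probe set. PDLIM5, a PDZ and LIM domain scaffold, was 2327 after miR-99a and 2272 after si-GL2 (0.034), while its 6 expressed probe sets ranged from -0.46 to 0.30.

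Of the 6 transcription genes 4 lay below 0, with a median of -0.19. ZBTB10, a zinc finger repressor, was 1626 after miR-99a and 2132 after si-GL2 (-0.39). Its next probe sets were at 1012 against 1215 (-0.26), 834 against 1099.6 (-0.39) and 279 against 412 (-0.54). The 3 dimmest were between -0.27 and -0.18, so that all 7 probe sets of ZBTB10, the most of any gene with 1 direction here, were lower after miR-99a. SPDEF, an ETS factor of luminal epithelium, was 1947 after miR-99a and 2314 after si-GL2 (-0.25). Its next 2 probe sets were at -0.20 and -0.29, and its 2 dimmest were at 0.13 and 0.46. All 5 probe sets of SPDEF are of the kind marked as able to cross-hybridise. CREB3L4, a membrane-anchored bZIP factor, was 2299.8 after miR-99a and 2154 after si-GL2 (0.094).

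ELL2 and EAF2 encode an RNA polymerase II elongation factor and a protein that binds it. EAF2 was 672 after miR-99a and 864.5 after si-GL2 (-0.36), with 2 probe sets below the limit at 0.29 and -0.14. ELL2 was 1999 after miR-99a and 1698 after si-GL2 (0.23), with a second probe set at 969 against 717 (0.43) and its dimmest expressed one at 261 against 339 (-0.36). The partners thus differed in sign by their brightest probe sets, and those of ELL2 disagreed among themselves. MAF, a bZIP factor, was 288 after miR-99a and 318 after si-GL2 (-0.14), but 102 against 67.1 (0.50) by its other expressed probe set.

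Genes of metabolism and cell division were close to 0. PLPP1, a lipid phosphatase, was 6064 after miR-99a and 6029 after si-GL2 (0.0084), and 4898 against 4932 (-0.0099) by its second probe set. UAP1, which makes the sugar donor UDP-N-acetylglucosamine, was 5418 after miR-99a and 5693 after si-GL2 (-0.071). HPGD, which inactivates prostaglandins, stood apart at 80.9 after miR-99a and 109 after si-GL2 (-0.37). All 4 of its probe sets were below 0, but only 1 was expressed. Those below the limit were at -0.42, -0.045 and -0.011. NCAPD3, a condensin II subunit, was 789 after miR-99a and 837 after si-GL2 (-0.085). CENPN, a kinetochore protein, was 4229 after miR-99a and 4375 after si-GL2 (-0.049), with its 3 expressed probe sets between -0.061 and -0.026.

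In MPHOSPH9, a centrosomal phosphoprotein, the probe sets fell into pairs. The 2 brightest were at 1224 after miR-99a against 1212 after si-GL2 (0.013) and at 513 against 503 (0.030). The 2 dimmer ones were at 265 against 418 (-0.63) and at 159.7 against 249.7 (-0.60), each at least 1.5-fold lower. Which transcripts the pairs measured was not tested. Of the remaining genes, TMEM140 was 67.9 after miR-99a and 66.7 after si-GL2 (0.022). HERC3, a HECT-type ubiquitin ligase, shares both of its probe sets with PIGY-DT. They were at 495 after miR-99a against 647 after si-GL2 (-0.38) and at 70.3 against 52.3 (0.34), in opposite directions, and HERC3 is in none of the counts.

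**Figure D4:**
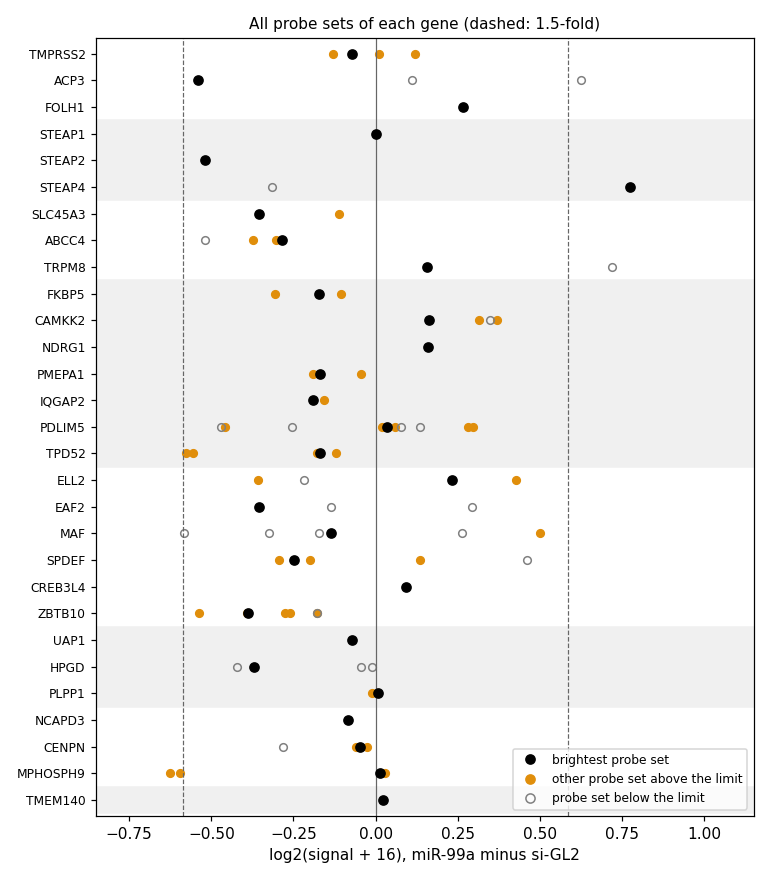
Log2 difference, miR-99a minus si-GL2, of all 91 probe sets, with 1 row per gene and genes grouped by role (alternate shading). Black circles are the brightest probe set of a gene, orange ones its other probe sets above the expression limit, open ones those below it, and dashed lines mark 1.5-fold; ZBTB10, ABCC4 and FKBP5 lie wholly left of 0, CAMKK2 wholly right, and MPHOSPH9 and ELL2 spread to both sides.

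Over single probe sets the counts past 1.5-fold were near the background, as over genes. The median and the share below 0 lay farther from the background than they did over genes. Of 68 expressed probe sets of the 29 genes, 2 were at least 1.5-fold lower, both of MPHOSPH9, and 1 was at least 1.5-fold higher, that of STEAP4. Over all 22407 expressed probe sets with 1 gene, 2.76% were at least 1.5-fold lower and 1.53% at least 1.5-fold higher, again near the members' counts. The median over the 68 probe sets was -0.11 and 64.7% lay below 0, against a median of -0.021 and 54.0% over all expressed probe sets. Of 23 probe sets of the 29 genes below the limit, 0 were at least 1.5-fold lower and 2 at least 1.5-fold higher. Of all such probe sets 4.87% and 5.63% were. These counts use the log2 difference with its pseudocount, and by deposited signals alone more of the 23 passed, in both directions. Probe sets of 1 gene are not independent, and ZBTB10, TPD52 and PDLIM5 contribute 17 of the 68.

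Agreement between probe sets is the only repeat measurement that the arrays hold, and it covers hybridisation, not cultures. Of the 29 genes, 16 had at least 2 expressed probe sets. In 8 of these all lay below 0 (SLC45A3, ABCC4, FKBP5, PMEPA1, IQGAP2, TPD52, ZBTB10 and CENPN), in 1 all lay above 0 (CAMKK2), and in 7 they were mixed. That is 50% wholly below 0 and 6.25% wholly above, where 31.5% and 24.6% of 5842 expressed genes lay. The share with 1 direction was alike, 56.3% of the 16 genes and 56.1% of the 5842. The SD between probe sets of a gene was 0.22 for the 16 genes and 0.20 for all 5842.

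A promoter window each is shown for 4 genes. FKBP5 and PMEPA1 are examples of genes whose probe sets all lay below 0 and of which a window holds a half-site, as is also true of IQGAP2, and STEAP2 and STEAP4 are relatives that lay on opposite sides of 0. The windows run from 250 bases before to 50 bases after an annotated start in RefSeq on GRCh38.p14, and 24 of the 32 genes matched, with 41 windows. The palindrome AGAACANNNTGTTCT was found in 0 of the 41 windows and in 1 of 35116 windows of all genes. The half-site AGAACA, read on both strands and contained in the palindrome, was in 6 of the 41 windows (14.6%) and in 14.8% of all windows. The 6 belong to FKBP5 (-0.17), IQGAP2 (-0.19), PMEPA1 (-0.17), TMEM140 (0.022) and TRPM8 (0.16), which lay on both sides of 0. The forkhead core TGTTTAC, on both strands, was in 2 of the 41 windows (4.88%), of STEAP2 and TMEM140, and in 3.42% of all windows. These shares were close to those of all windows, and a match in letters is not a bound site.

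In the sequences, capitals mark AGAACA or TGTTTAC or their reverse complements. The FKBP5 window is chr6:35728534-35728833 on the minus strand, the PMEPA1 window chr20:57710528-57710827 on the minus strand, the STEAP2 window chr7:90213570-90213869 on the plus strand and the STEAP4 window chr7:88306845-88307144 on the minus strand. In the FKBP5 window shown the half-site begins at the start base itself, and in the PMEPA1 window shown at position -229 from it. FKBP5 has 2 windows in all, PMEPA1 4 and STEAP2 2. The windows of these genes not printed hold no capitals, except a further PMEPA1 window with a half-site at position 22.
FKBP5: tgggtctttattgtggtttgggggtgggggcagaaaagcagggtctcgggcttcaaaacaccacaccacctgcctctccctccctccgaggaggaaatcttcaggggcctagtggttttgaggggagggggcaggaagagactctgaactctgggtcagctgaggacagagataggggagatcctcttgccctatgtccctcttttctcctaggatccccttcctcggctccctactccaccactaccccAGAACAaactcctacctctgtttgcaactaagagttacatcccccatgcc
PMEPA1: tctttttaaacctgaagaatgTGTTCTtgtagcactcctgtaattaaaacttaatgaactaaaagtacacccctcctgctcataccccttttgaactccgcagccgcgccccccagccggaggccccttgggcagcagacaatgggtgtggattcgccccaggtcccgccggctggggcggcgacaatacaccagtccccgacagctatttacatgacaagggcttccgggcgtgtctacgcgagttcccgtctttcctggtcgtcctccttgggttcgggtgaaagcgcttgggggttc
STEAP2: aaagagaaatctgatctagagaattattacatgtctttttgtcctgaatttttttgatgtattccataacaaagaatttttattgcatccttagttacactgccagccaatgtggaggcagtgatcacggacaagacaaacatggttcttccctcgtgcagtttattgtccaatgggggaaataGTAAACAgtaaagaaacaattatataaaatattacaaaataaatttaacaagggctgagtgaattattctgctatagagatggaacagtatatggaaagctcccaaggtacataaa
STEAP4: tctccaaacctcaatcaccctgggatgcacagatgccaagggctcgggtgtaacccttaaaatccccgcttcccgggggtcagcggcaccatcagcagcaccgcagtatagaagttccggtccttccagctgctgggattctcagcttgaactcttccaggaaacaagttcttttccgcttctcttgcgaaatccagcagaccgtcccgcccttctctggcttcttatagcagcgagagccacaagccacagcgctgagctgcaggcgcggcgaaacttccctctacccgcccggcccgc

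Other genes of the pathway were read in the same way. The 13 factors and coregulators of the androgen response analysed here were all expressed, with a median of 0.042, a range of -0.36 to 0.26, 6 below 0, and 0 past 1.5-fold in either direction. FOXA1 was 3328 after miR-99a and 3596 after si-GL2 (-0.11), but its other expressed probe set was at 0.11. HOXB13, a prostate homeobox factor, was 2411 against 2341 (0.042). The coactivator NCOA2 was lowest at -0.36, although its other 2 expressed probe sets were near 0, and the acetyltransferase EP300 was highest at 0.26. By their brightest probe sets the 4 kallikreins had a median of -0.094, with 3 below 0 and 0 past 1.5-fold. Their expressed probe sets spread more widely, from -0.78, past 1.5-fold, to -0.13 for KLK2 and from -0.17 to 0.55 for KLK4. Those of KLK3 ran from -0.26 to 0.20 and those of KLK15 from -0.090 to -0.053.

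Of 4 measured genes known to be held down by androgen, 1 was expressed. UGT2B15, a glucuronosyltransferase that inactivates androgens, was 172 after miR-99a and 217 after si-GL2 (-0.31). All 3 of its probe sets were below 0, the lowest at -1.32 and below the limit. UGT2B17 was 10.3 after miR-99a and 63.4 after si-GL2 (-1.59). As a mean over both arrays UGT2B17 was below the limit, but on the si-GL2 array it was above it. These enzymes are close copies of each other whose probe sets can share signal. The other measured genes of this kind, OPRK1 (0.21) and PRODH (-0.092), were below the limit on both arrays. Signs that miR-99a had acted were sought in 4 genes reported as its targets, of which 3 were at least 1.5-fold lower by their brightest probe sets. SMARCA5 was 522 after miR-99a and 934 after si-GL2 (-0.82), and all 3 of its probe sets were below 0. SMARCD1 was at -0.94 and MTOR at -0.79, each with a dimmer probe set above 0, and FGFR3 at -0.029. The first 3 of these genes come from published work on this experiment, so their direction is not independent evidence.

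The cells had the markers of luminal prostate epithelium on both arrays. The 4 measured luminal markers KLK3, KRT8, KRT18 and HOXB13 were all expressed, and their summed signal was 17077 after miR-99a and 15970.1 after si-GL2. The sum joins differences of both signs, with KRT8 and KRT18 each at 0.31, HOXB13 at 0.042 and KLK3 at -0.13. All 3 measured basal markers lay below the limit, and together they gave 40.4 on the miR-99a array and 47.6 on the si-GL2 array. The 5 stromal markers summed to 499.7 against 429, the 3 leukocyte markers to 118 against 77.1 and the 3 endothelial markers to 222 against 215. Of these 11 markers 6 reached the limit, the highest being COL1A1 at 229.6 after miR-99a and 233 after si-GL2. Reaching the limit therefore does not by itself show expression of dim genes such as STEAP4, HPGD and TMEM140. Their part in the differences above was not tested.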

How the data were processed

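For each of 54675 probe sets the authors deposited a linear signal intensity on each array. Biotin labelling and hybridisation followed Affymetrix procedures, per the labels' protocols. The summary algorithm and its scaling were not given in the sources used here, and detection calls were not used. The array medians were 47.8 for miR-99a and 47.4 for si-GL2, so intensities were used as deposited. The number of arrays limits the precision.

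Intensities were transformed to log2(signal + 16), and differences are miR-99a minus si-GL2, which understates the change of dim genes. Names came from the platform annotation, and probe sets with several names stayed out of the counts. A gene was represented by the probe set with the highest mean over both arrays, and counted as expressed at or above the median of that mean over all probe sets. The 1.5-fold limit is a rule of size, 0.58 on the log2 scale. Signals of different probe sets are not comparable as RNA levels. All members are named. The members, gene lists and rules were chosen with earlier results of these data known. The scripts were tested on simulated data. Alternatives were other pseudocounts, centring, quantile normalization, averaging of probe sets, other limits, and leaving out _x_ and _s_ probe sets. Python 3.11.15, numpy 2.4.6, pandas 2.3.3 and matplotlib 3.10.9 were used. Some genes of the lists are not reported here.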

Additional observations from a re-analysis of the deposited data

Results flagged for a closer look

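Of the 23 probe sets below the expression limit, which entered no count of genes, 2 were at least 1.5-fold higher by the log2 difference. That difference includes the pseudocount, which pulls dim probe sets toward 0. By the ratio of deposited signals, miR-99a over si-GL2, further ones passed 1.5-fold in both directions. Examples are a probe set of EAF2 at 1.62 and one of STEAP4 at 0.56. A dim probe set of ACP3 was at 28.0 after miR-99a against 12.5 after si-GL2 (log2 difference 0.63), while the brightest probe set of ACP3 was at -0.54. A dim probe set of TRPM8 was at 49.7 after miR-99a against 23.9 after si-GL2 (log2 difference 0.72), beside 0.16 by its brightest. The probe set farthest below 0 among the 23, of MAF, was at 6.66 after miR-99a against 17.9 after si-GL2 (-0.58). Its log2 difference was just short of 1.5-fold, but its signal ratio was 0.37, beside 2.24 for ACP3 and 2.08 for TRPM8. By the log2 difference, 5.63% of all probe sets below the limit were at least 1.5-fold higher and 4.87% at least 1.5-fold lower. The cause of the ACP3 and TRPM8 values was not tested.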

How the results depend on the processing

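The count of genes at least 1.5-fold lower was 0, and it was 1 with a pseudocount of 1, where ACP3 passed at -0.60. The count of genes at least 1.5-fold higher was 1, STEAP4, and it was 0 with a pseudocount of 64, 0 with the mean over all probe sets, 0 with the limit at the 75th percentile, which leaves STEAP4 out, and 0 under a 2-fold rule. It was 1 after centring, after quantile normalization, with a pseudocount of 1, with the mean over expressed probe sets, without _x_ and _s_ probe sets and with no limit. The median over the genes ran from -0.082 to -0.026 and stayed below 0 under all 9 alternatives that recomputed it. With no limit the counts and the median could not move, because the same 29 genes and probe sets entered. Without _x_ and _s_ probe sets it was -0.026 over 25 genes, above the -0.040 of all expressed genes. Of 253 values of single genes under the alternatives, 240 moved by less than 0.20, the SD between probe sets of a gene, and 13 moved by more. Many of the 253 could not move, so this share does not measure stability. The expression limit does not enter a gene's difference, which fixes 29 values with no limit and 25 at the 75th percentile. Averaging cannot move the 8 genes with 1 probe set. With the mean over all probe sets 7 genes moved by more than 0.20 and 22 did not. STEAP4 ran from 0.23, as a mean over its probe sets, to 1.01, with a pseudocount of 1. ACP3 was at 0.065 and MPHOSPH9 at -0.30 as means over their probe sets, and without _s_ probe sets TPD52 was at -0.56 and MAF at 0.50. No paired analysis was possible because each group holds 1 array. With 1 array per group, variation between cultures was not measured, and values of dim genes such as STEAP4, HPGD and TMEM140 lie close to the limit.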
